A study of Mus musculus with 6 samples.

Results

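The G2/M and mitosis genes are a list of 35 cell cycle genes whose products carry a cell from the end of DNA replication through chromosome segregation and division. They were chosen by name, with earlier results of these data known. Of the 35, 33 had a row among the 22180 genes of the array, each read from the brightest of its probe sets by the mean of all 6 arrays. Ccnb1 and Ncapg had no probe set with 1 symbol and are not analysed here. Expression was measured by Affymetrix Mouse Gene 2.0 ST array in LSK cells, the lineage-negative, Sca-1 positive, c-Kit high fraction of bone marrow that contains the blood stem cells and the earliest progenitors. The 3 knockout arrays came from mice with a tamoxifen-inducible conditional deletion of Ctcf (CTCFcKO), and the 3 WT arrays from mice labelled WT. All 6 mice were male and 8 weeks old. All received 2 mg of tamoxifen daily for 3 days, with the marrow taken 24 hours after the last dose. Protocol and design text name CreER mice beside the conditional knockout, and neither says whether the WT mice carried CreER, which promoter drives it or which exons are removed. Each array is labelled a separate biological replicate. Levels are log2 values, and every list of 3 values below is in the order of replicates 1, 2 and 3.

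Cells double their DNA in S phase, check it in G2 and separate it in mitosis. CDK1 with cyclins A and B starts mitosis, Aurora and Polo-like kinases build and control the spindle, the spindle checkpoint waits until every chromosome is attached, and the anaphase-promoting complex (APC/C) with CDC20 then destroys cyclins and releases the sister chromatids. Genes of this programme are transcribed together late in the cycle. They are held down in resting cells by the DREAM complex and are switched on by B-MYB and FOXM1, which share with DREAM the MuvB core that binds the cell cycle genes homology region (CHR). Most adult blood stem cells rest outside the cycle, while the multipotent progenitors sorted with them in the LSK gate divide more often, so the transcripts mark the dividing part of the sorted cells. In bulk RNA of sorted cells, more dividing cells and more transcript per dividing cell cannot be told apart.

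The study's title places Ctcf in stem cell maintenance and quiescence, and its only comparison is knockout against WT. Ctcf itself was at 7.58, 7.78 and 7.86 in the knockout, against 8.35, 8.59 and 8.73 in WT. The groups did not overlap, the log2 difference was -0.82 (SE 0.13), and limma with Benjamini-Hochberg adjustment over all genes gave adjusted p = 0.104, which misses the threshold of 0.05. The 6 arrays had like medians over their probe sets, from 5.99 to 6.07. Of the antigens that define the sort, Kit averaged 10.15 in the knockout and 10.38 in WT with separate groups and a difference of -0.22 (SE 0.13), which was not called, and Ly6a, which encodes Sca-1, is not analysed here. Of the wider list of 10 LSK genes, 8 had a row, 3 with a positive and 5 with a negative difference and 0 called. Their differences ran from -0.42 for Flt3 to 0.34 for Gata2. Of 9 lineage antigens 7 had a row, 2 with a positive and 5 with a negative difference. Il7r, the interleukin-7 receptor chain of lymphoid progenitors, was called lower, at 7.52, 7.60 and 7.74 in the knockout, against 9.93, 10.27 and 9.49 in WT (difference -2.28, SE 0.18, limma adjusted p = 0.00672). The other 6, which were Cd3e, Cd4, Cd8a, Itgam, Ly6g and Ptprc, differed by between -0.23 and 0.25 and were not called. The arrays carry no detection call, so such levels show neither presence nor absence.

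The promoters show what most of the genes share in sequence. RefSeq's promoter windows on assembly GRCm38.p6, from 250 bases before to 50 after each start, held 29 windows for 27 of the 33 genes. Ccna2, Foxm1, Tpx2, Aurkb, Kif20a and Cdc25c had none. The 6 windows below belong to the genes with the smallest unadjusted p among those with both a CHR match (TTTGAA) and a CCAAT box, the element bound by NF-Y. They are shown because they carry the letters through which MuvB complexes and NF-Y are known to act on such genes. Capitals mark CHR and CCAAT matches on either strand, so TTCAAA and ATTGG are the reverse forms. Their positions are chrX:100625815-100626114 (+ strand) for Kif4, chr7:135716330-135716629 (- strand) for Mki67, chr4:124936868-124937167 (- strand) for Cdca8, chr7:80294201-80294500 (+ strand) for Prc1, chr11:99024140-99024439 (- strand) for Top2a and chr2:172370521-172370820 (- strand) for Aurka.
Kif4: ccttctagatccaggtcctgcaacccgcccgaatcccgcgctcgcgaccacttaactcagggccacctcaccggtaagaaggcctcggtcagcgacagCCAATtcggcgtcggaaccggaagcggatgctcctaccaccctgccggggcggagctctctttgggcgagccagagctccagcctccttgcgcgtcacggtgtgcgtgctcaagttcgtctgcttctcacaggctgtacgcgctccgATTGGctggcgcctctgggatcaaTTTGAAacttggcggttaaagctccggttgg
Mki67: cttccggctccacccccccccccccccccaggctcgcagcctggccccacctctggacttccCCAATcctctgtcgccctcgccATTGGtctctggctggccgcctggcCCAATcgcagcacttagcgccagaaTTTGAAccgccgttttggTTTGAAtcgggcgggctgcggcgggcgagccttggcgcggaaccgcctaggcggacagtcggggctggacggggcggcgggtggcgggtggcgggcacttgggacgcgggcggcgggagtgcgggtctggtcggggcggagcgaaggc
Cdca8: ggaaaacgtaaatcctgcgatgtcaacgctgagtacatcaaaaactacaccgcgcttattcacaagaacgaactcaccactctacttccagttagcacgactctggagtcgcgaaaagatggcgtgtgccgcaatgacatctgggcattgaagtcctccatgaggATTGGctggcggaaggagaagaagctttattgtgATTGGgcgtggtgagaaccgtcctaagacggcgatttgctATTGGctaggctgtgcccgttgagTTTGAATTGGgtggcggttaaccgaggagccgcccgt
Prc1: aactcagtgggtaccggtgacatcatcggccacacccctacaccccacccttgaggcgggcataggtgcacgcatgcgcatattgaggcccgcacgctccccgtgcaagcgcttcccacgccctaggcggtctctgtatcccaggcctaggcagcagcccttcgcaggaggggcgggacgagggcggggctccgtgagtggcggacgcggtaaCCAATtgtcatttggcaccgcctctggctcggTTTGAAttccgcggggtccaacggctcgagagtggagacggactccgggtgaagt
Top2a: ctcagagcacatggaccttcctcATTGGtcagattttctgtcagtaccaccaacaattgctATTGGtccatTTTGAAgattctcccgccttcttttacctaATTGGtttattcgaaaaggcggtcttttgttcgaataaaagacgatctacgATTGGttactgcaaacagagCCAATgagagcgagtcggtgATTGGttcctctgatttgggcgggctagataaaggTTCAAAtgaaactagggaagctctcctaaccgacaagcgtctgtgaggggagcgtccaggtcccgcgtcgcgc
Aurka: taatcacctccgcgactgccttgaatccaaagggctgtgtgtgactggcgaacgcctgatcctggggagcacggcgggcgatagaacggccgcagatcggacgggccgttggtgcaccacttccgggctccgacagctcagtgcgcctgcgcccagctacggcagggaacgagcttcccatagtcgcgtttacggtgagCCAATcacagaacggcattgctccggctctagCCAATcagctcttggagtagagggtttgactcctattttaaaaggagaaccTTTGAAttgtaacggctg

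In Kif4 the CHR match begins 19 bases after the start, in Prc1 it begins 5 bases before it, and in Aurka 32 bases after it. Mki67 holds 2 CHR matches, 116 and 98 bases before the start, downstream of 3 CCAAT boxes. Top2a holds 6 CCAAT boxes and 2 CHR matches, of which 1 lies on the opposite strand 23 bases before the start. In Cdca8 the CHR match shares its last letter with a reversed CCAAT box. Over all 27 genes, TTTGAA was found for 21, or 77.8%, beside 17.8% of the 16990 genes of the array with a window and 20.2% of all 27025 genes in the promoter table. CCAAT was found for 22 genes, or 81.5%, beside 41.6% of the genes of the array. Both were found for 19, or 70.4%, beside 7.13%. The genes without TTTGAA were Cenpe, Bub1, Ncaph, Nek2, Nusap1 and Birc5. Among 32 S phase genes with a window, TTTGAA was found for 4 (12.5%) and the E2F form TTTNNCGC for 15 (46.9%). Among the G2/M genes TTTNNCGC was found for Cdk1 alone of the 27, or 3.70%. The share with TTTNNCGC among the genes of the array was 7.16%. A degenerate form of the CTCF core motif was found for 0 of the 27, and for 2.82% of the genes of the array. All motifs were searched on both strands. A match describes the letters of a window and is no evidence of binding in these cells.

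Every one of the 33 genes had a higher mean level in the knockout than in WT, as had 54.7% of all genes, and none passed the test. The differences ran between 0.30 and 0.76 on the log2 scale with a median of 0.54, or 1.45-fold, where the median of all 22180 genes was 0.02. SEs lay between 0.15 and 0.31. By limma with Benjamini-Hochberg adjustment over all genes the adjusted p ran from 0.477 for Kif4 to 0.858 for Ube2c, so 0 of 33 were called, beside 0.0721% of all genes called in either direction and 0.0271% called higher. At an unadjusted p under 0.05, limma had 18 of the 33 higher and 0 lower, a share of 54.5% beside 5.03% of all genes higher and 3.08% lower. A difference above 0.5 was measured for 22 of the 33, beside 1.48% of all genes. The groups were separate, with every knockout array above every WT array, for 3 of the 33, a share of 9.09% beside 7.96% of all genes. The share with separate groups was thus close to that of all genes. The 18 intervals that lie above 0 are those of the genes at an unadjusted p under 0.05.

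**Figure D1:**
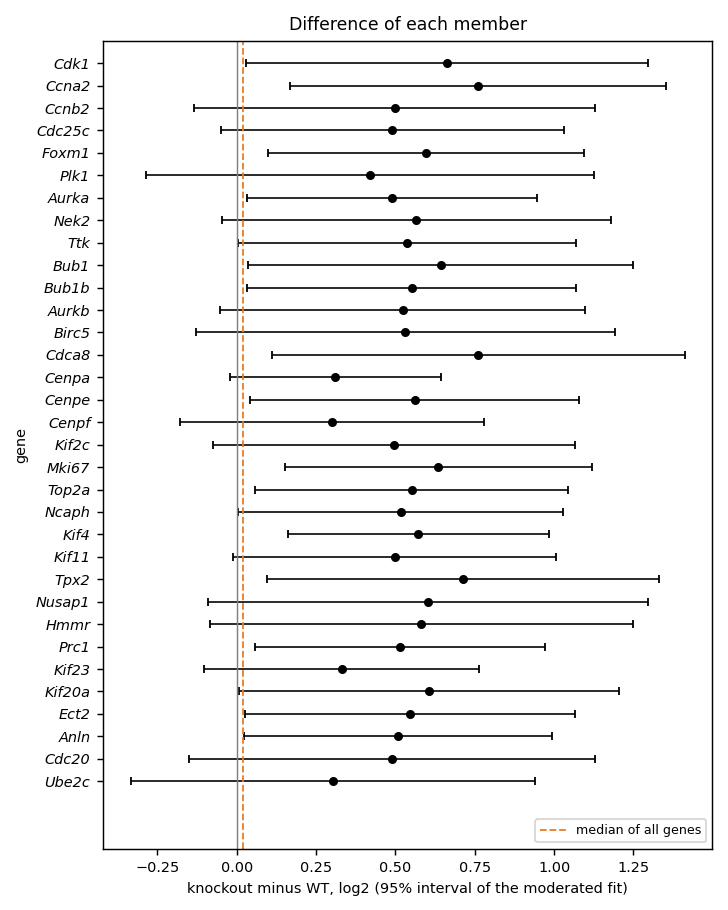
Knockout minus WT difference of each of the 33 genes on the log2 scale, in the order of their roles, with points for the estimate and bars for the 95% interval of the moderated limma fit without correction for multiple tests. All points lie between 0.30 and 0.76, to the right of the dashed median of all genes at 0.02, and 18 of the 33 bars stay above 0.

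The engine of mitotic entry had a median difference of 0.60 over 5 genes. Cdk1, the kinase that drives entry into mitosis, was at 9.90, 9.89 and 9.51 in the knockout, against 9.25, 8.42 and 9.65 in WT. The ranges overlapped, since WT replicate 3 lay above knockout replicate 3, and the difference was 0.66 (SE 0.28). Ccna2, the cyclin A of S phase and G2, was at 11.001, 10.65 and 10.45 in the knockout, against 10.18, 9.31 and 10.32 in WT. All knockout arrays lay above all WT arrays, and at 0.76 (SE 0.26) the difference was the largest of the list. Foxm1, the transcription factor of late cell cycle genes, was at 8.52, 8.39 and 8.22 in the knockout, against 7.92, 7.25 and 8.18 in WT. Its groups did not overlap either, with a difference of 0.60 (SE 0.22). For Ccna2, Foxm1 and Mki67, the 3 separate genes, an exact permutation test, two-sided, gave p = 0.1, and no smaller value is possible with 3 arrays a group. Ccnb2, a B-type cyclin, differed by 0.50 (SE 0.28), and Cdc25c, a phosphatase that activates CDK1, by 0.49 (SE 0.24). In both of these genes the groups overlapped.

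Among the mitotic kinases and the spindle checkpoint, Bub1 had the largest difference. Bub1, a checkpoint kinase at kinetochores, was at 9.24, 9.21 and 9.001 in the knockout, against 8.60, 7.85 and 9.08 in WT. The 3 knockout arrays spanned a narrow range that took in WT replicate 3 and lay well above WT replicate 2, for a difference of 0.64 (SE 0.27). Bub1b encodes BUBR1, a subunit of the complex that holds back the APC/C, and was at 8.43, 8.85 and 8.38 in the knockout, against 7.97, 7.56 and 8.48 in WT, a difference of 0.55 (SE 0.23). Ttk, the kinase MPS1 that starts checkpoint signalling, was at 8.06, 8.30 and 7.79 in the knockout, against 7.50, 7.04 and 7.998 in WT, a difference of 0.54 (SE 0.23). In both, WT replicate 3 exceeded knockout replicate 3. Aurka, the Aurora kinase of centrosomes and spindle poles, was at 8.92, 9.26 and 8.77 in the knockout, against 8.60, 8.08 and 8.80 in WT. Knockout replicate 3 minus WT replicate 3 was -0.04, and the difference was 0.49 (SE 0.20). Plk1, the Polo-like kinase of mitotic entry and spindle assembly, was at 9.71, 9.97 and 9.22 in the knockout, against 9.29, 8.52 and 9.82 in WT. WT replicate 3 lay above 2 of the 3 knockout arrays, and the difference of 0.42 (SE 0.31) was below its own spread in WT (SD 0.65, n = 3). Nek2, a kinase of centrosome separation, differed by 0.57 (SE 0.27), again with groups that overlapped.

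The chromosomal passenger complex corrects faulty attachments of chromosomes to the spindle. Its subunit borealin, encoded by Cdca8, was at 8.99, 8.81 and 8.38 in the knockout, against 8.15, 7.28 and 8.47 in WT. Knockout replicate 3 lay just below WT replicate 3, and the difference was 0.76 (SE 0.29). Its kinase Aurkb differed by 0.52 (SE 0.25) and its subunit survivin, encoded by Birc5, by 0.53 (SE 0.29), each with groups that overlapped. Centromere and kinetochore genes had a lower median difference, 0.40 over 4 genes. Cenpe, a kinetochore motor that moves chromosomes to the spindle equator, was at 8.27, 8.57 and 8.08 in the knockout, against 7.63, 7.35 and 8.26 in WT, a difference of 0.56 (SE 0.23). Cenpa, the histone H3 variant of centromeres, was at 8.97, 9.10 and 8.80 in the knockout, against 8.57, 8.45 and 8.91 in WT. It varied least within WT, and its difference was 0.31 (SE 0.15). Cenpf, a large kinetochore protein, was at 7.75, 7.90 and 7.24 in the knockout, against 7.33, 6.99 and 7.65 in WT. WT replicates 1 and 3 both exceeded knockout replicate 3, and its difference of 0.30 (SE 0.21) was the smallest of the list. Kif2c, a kinesin that takes microtubules apart at centromeres, differed by 0.49 (SE 0.25).

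Genes of chromosome structure all reached an unadjusted p under 0.05. Mki67 encodes Ki-67, the proliferation antigen that coats mitotic chromosomes, and was at 10.76, 11.14 and 10.74 in the knockout, against 10.24, 9.82 and 10.68 in WT. The lowest knockout array, replicate 3, lay 0.06 above the highest WT array, and the difference was 0.63 (SE 0.21). Top2a, the topoisomerase that untangles sister DNA, was at 9.94, 10.30 and 9.93 in the knockout, against 9.40, 9.12 and 9.998 in WT. WT replicate 3 lay above knockout replicates 1 and 3, and the difference was 0.55 (SE 0.22). Ncaph, a condensin subunit, was at 8.87, 8.93 and 8.52 in the knockout, against 8.24, 7.80 and 8.73 in WT, a difference of 0.52 (SE 0.22). Kif4, a chromosome-bound kinesin, was at 7.75, 7.87 and 7.48 in the knockout, against 7.09, 6.81 and 7.48 in WT. Knockout replicate 3 and WT replicate 3 were nearly equal, and the difference of 0.57 (SE 0.18) had the smallest unadjusted p of the list, 0.0121 by limma. Of the spindle genes, Tpx2, which activates Aurora A and nucleates microtubules, was at 9.01, 9.43 and 8.75 in the knockout, against 8.43, 7.76 and 8.86 in WT, a difference of 0.71 (SE 0.27). The others differed by 0.50 (SE 0.22) for Kif11, the motor that pushes spindle poles apart, by 0.60 (SE 0.30) for Nusap1 and by 0.58 (SE 0.29) for Hmmr, both microtubule-binding proteins.

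Genes of the central spindle and cytokinesis, which cut the cell in 2, had a median difference of 0.52 over 5 genes. Prc1, which bundles the microtubules of the midzone, was at 8.33, 8.80 and 8.24 in the knockout, against 7.84, 7.67 and 8.32 in WT, a difference of 0.52 (SE 0.20). Kif20a, a midzone kinesin, was at 9.24, 9.20 and 8.69 in the knockout, against 8.39, 7.91 and 9.001 in WT, a difference of 0.61 (SE 0.26). In both, WT replicate 3 lay above knockout replicate 3. Ect2, the exchange factor that activates RhoA at the equator, was at 10.49, 10.56 and 10.13 in the knockout, against 9.80, 9.39 and 10.35 in WT, a difference of 0.55 (SE 0.23). Anln encodes anillin, a scaffold of the contractile ring, and was at 9.05, 9.05 and 8.83 in the knockout, against 8.43, 8.02 and 8.96 in WT, a difference of 0.51 (SE 0.21). Knockout replicates 1 and 2 of Anln were nearly equal. Kif23, the kinesin of the centralspindlin complex, differed by 0.33 (SE 0.19). The genes of mitotic exit had none at an unadjusted p under 0.05. Cdc20, the activator of the APC/C, was at 8.75, 9.36 and 8.51 in the knockout, against 8.31, 7.91 and 8.93 in WT, a difference of 0.49 (SE 0.28). Ube2c, its ubiquitin-conjugating enzyme, was at 10.40, 9.88 and 9.75 in the knockout, against 9.92, 9.05 and 10.14 in WT. WT replicate 3 lay above 2 knockout arrays, and the difference was 0.30 (SE 0.28).

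**Figure D2:**
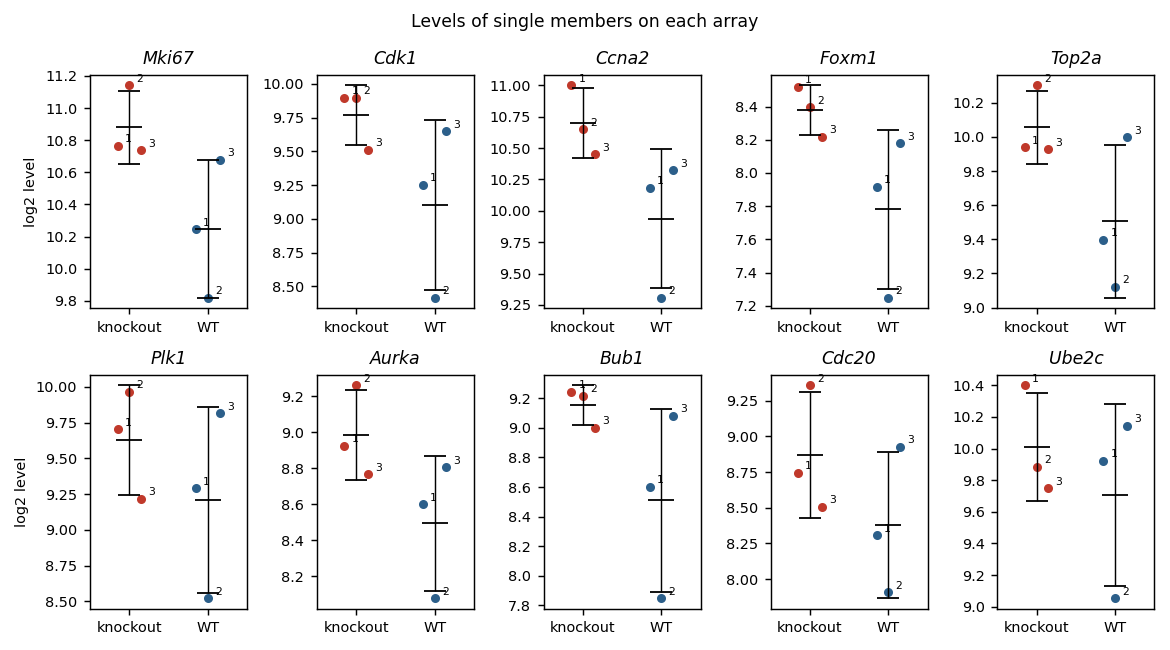
Log2 levels of 10 genes on each array, knockout on the left and WT on the right, with replicate numbers beside the points and bars for the mean ± SD (n = 3 each); the vertical scales differ between panels and do not start at 0. WT replicate 2 is the lowest point in every panel, and the groups are separate for Mki67, Ccna2 and Foxm1.

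The arrays took nearly the same order in every gene of the list. WT replicate 2 was the lowest of the 6 arrays for 33 of 33 genes, beside 23.0% of all genes. WT replicate 1 lay between WT replicates 2 and 3 and WT replicate 3 was the highest WT array for 33 of 33, an order held by 19.9% of all genes. In the knockout, replicate 3 was the lowest array for 32 of 33, beside 30.5% of all genes, with Kif2c the exception. Knockout replicate 2 exceeded every WT array for 32 of 33, with Ube2c the exception, beside 29.8% of all genes. Knockout replicate 1 did so for 28 of 33, beside 31.2% of all genes. WT replicate 3 exceeded knockout replicate 3 for 30 of 33, beside 47.9% of all genes, the exceptions being Mki67, Ccna2 and Foxm1. As genes of 1 programme vary together within a sample, these counts are not 33 independent observations.

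The range of the 3 WT arrays was wider than the difference between the groups. WT replicate 3 exceeded WT replicate 2 by between 0.47 (Cenpa) and 1.29 (Plk1), with a median of 0.98. This step was larger than the knockout minus WT difference for 33 of 33 genes, a count not made over all genes. Over all genes the median of the same step was 0.03, and 5.91% of genes had 0.47 or more. The median SD of the list was 0.25 in the knockout and 0.49 in WT, below the median difference of 0.54, while over all genes it was 0.15 in the knockout and 0.14 in WT. The SD was higher in WT than in the knockout for 31 of 33, Kif2c and Cenpf being the exceptions. That count was not made over all genes either, so neither is shown to be particular to the list. Across the 33 genes, which are not independent, the WT step correlated with the amount by which knockout replicates 1 and 2 exceeded knockout replicate 3 (Pearson r = 0.41, Spearman rho = 0.53), a description over 2 sets of arrays that share no sample.

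**Figure D3:**
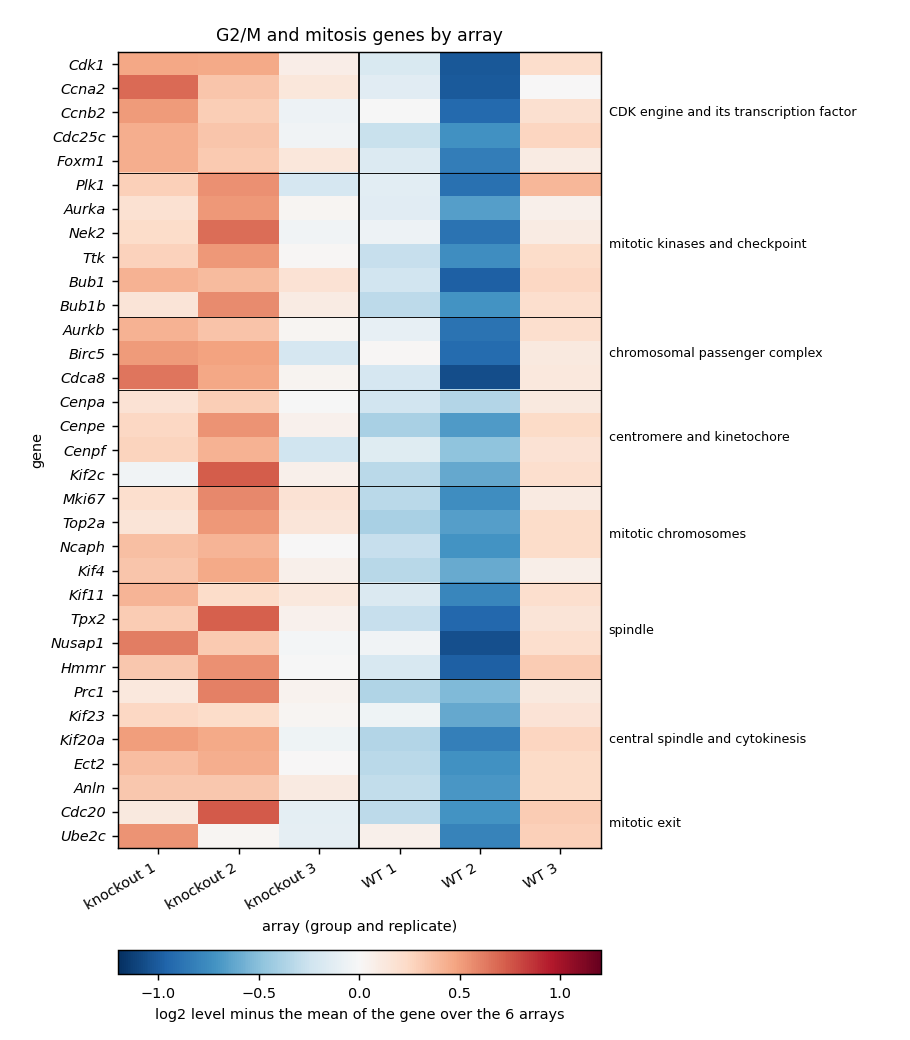
Log2 level of each of the 33 genes (rows, grouped by role) on each array (columns, knockout left and WT right), minus the gene's mean over the 6 arrays, with red above and blue below that mean. WT replicate 2 is blue in every row, and knockout replicates 1 and 2 are red in nearly every row, while knockout replicate 3 and WT replicate 3 are paler.

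Genes of the list differed in which of knockout replicates 1 and 2 was higher, some by almost nothing. Replicate 1 was the highest knockout array for 14 genes and replicate 2 for 19, counts not made over all genes. Replicate 2 minus replicate 1 had a median of 0.07 over the list, and was 0.0007 for Anln and -0.0038 for Cdk1. Ube2c, Ccna2, Nusap1 and Ccnb2 were lower in replicate 2 than in replicate 1, by a log2 difference of -0.51, -0.35, -0.30 and -0.215. Kif2c, Cdc20, Prc1 and Nek2 lay the other way, by 0.77, 0.61, 0.47 and 0.45. Both genes of mitotic exit were among these, Cdc20 on one side and Ube2c on the other.

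The size of the difference rested on which arrays entered, most of all on which WT arrays. Without WT replicate 2 the median of the list was 0.29, 32 of 33 differences were positive, and limma put 2 of 33 genes at an unadjusted p under 0.05, beside 3.26% of all genes higher. Ube2c then had a difference of -0.02. Without WT replicate 3 the median was 0.76 and 31 of 33 genes had an unadjusted p under 0.05, beside 5.77%. Leaving out WT replicate 1 gave 6 such genes, beside 3.83% of all genes. Of the knockout arrays, leaving out replicate 1, 2 or 3 gave a median of 0.53, 0.45 or 0.67. The count of genes at an unadjusted p under 0.05 by limma was then 5 (4.51%), 2 (4.10%) or 22 (4.75%). With all arrays the count was 4 with array weights (4.75%) and 10 with the replicate number as a block (4.93%). In all 8 of these fits the number of the 33 genes called after adjustment was 0, with a lowest adjusted p of 0.246, for Top2a without WT replicate 3.

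**Figure D4:**
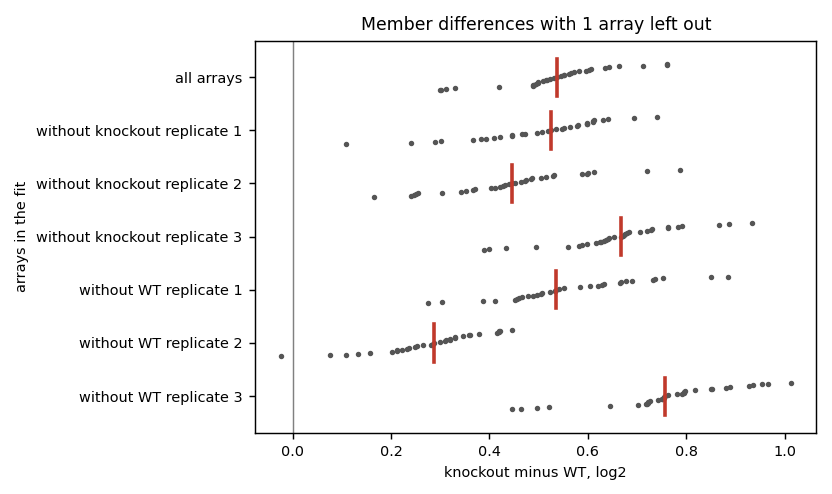
Knockout minus WT differences of the 33 genes (points, log2) with all arrays and with each array left out in turn, with a red bar at the median. The median lies at 0.29 without WT replicate 2 and at 0.76 without WT replicate 3, and 1 point is below 0, that of Ube2c without WT replicate 2.

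Further mitosis genes with a row had the same sign, on a list also chosen with earlier results of these data known. Of 82 such genes 77 had a row, all 77 with a positive difference, beside 54.7% of all genes, and with a median of 0.49. None was called. Limma put 40, or 51.9%, at an unadjusted p under 0.05 and higher, beside 5.03% of all genes, and the groups were separate for 14, or 18.2%, beside 7.96%. The largest differences were those of Plk4, the kinase of centriole duplication, at 0.81 (SE 0.26), Cep55, an organiser of abscission, at 0.78 (SE 0.21), Depdc1a at 0.75 (SE 0.30) and Ndc80, a kinetochore subunit, at 0.74 (SE 0.27). Cep55 averaged 8.001 ± 0.21 in the knockout and 7.22 ± 0.44 in WT (SD, n = 3 each), with separate groups. The smallest were those of Wee1, the kinase that restrains CDK1, at 0.04 (SE 0.11), and Pimreg at 0.09 (SE 0.18). Without WT replicate 2 the median of the 77 was 0.30. WT replicate 2 was the lowest of all arrays for 72 of the 77, beside 23.0% of all genes. The WT order seen above was held by 70 of the 77, beside 19.9% of all genes.

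By list medians, S phase genes took an order of the knockout arrays unlike that of the G2/M list. They had a median difference of 0.34, with 37 of 38 positive, beside 54.7% of all genes, and 0 called. By limma 15, or 39.5%, were higher at an unadjusted p under 0.05, beside 5.03% of all genes, and 12, or 31.6%, had separate groups, beside 7.96%. The largest were those of Prim1, a primase subunit, at 0.63 (SE 0.20), Lig1, a DNA ligase, at 0.58 (SE 0.21), Rrm1, a ribonucleotide reductase subunit, at 0.57 (SE 0.20), and Chaf1a, a histone chaperone subunit, at 0.55 (SE 0.20). The smallest were those of Ung, a uracil glycosylase, at -0.03 (SE 0.12), and Cdt1, a licensing factor, at 0.12 (SE 0.18). With every gene centred on its mean, the medians of the G2/M list were 0.33, 0.46 and 0.03 in the knockout, against -0.23, -0.74 and 0.20 in WT. Those of the S phase list were 0.07, 0.36 and 0.15 in the knockout, against -0.20, -0.42 and 0.10 in WT. G2/M minus S phase was thus 0.26, 0.10 and -0.13 in the knockout, against -0.03, -0.33 and 0.10 in WT, and these values overlapped between the groups. Knockout replicate 3 was the lowest knockout array for 13 of the 38 S phase genes, against 32 of the 33 G2/M genes. The S phase share of 34.2% was close to the 30.5% of all genes.

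Regulators and constitutive parts of the cycle had smaller median differences, with higher shares of separate groups than the 9.09% of the G2/M list, a difference that was not tested. Beside each count here stand the same 5.03% of all genes higher at an unadjusted p under 0.05 by limma and 7.96% separate and higher. The 14 APC/C subunits had a median of 0.19, with 13 positive, 0 called, 2 higher at an unadjusted p under 0.05 and 7 with separate groups. Anapc11, its RING subunit, differed by 0.46 (SE 0.17), and Anapc15, Anapc13 and Anapc5 by 0.35, 0.32 and 0.23. Cdc26 differed by -0.05 (SE 0.12) and Anapc2 by 0.07 (SE 0.15). The 22 genes of DREAM, MuvB, E2F and the pocket proteins had a median of 0.18, with 19 positive, 0 called, 5 (22.7%) higher and 1 lower at an unadjusted p under 0.05, and 7 (31.8%) separate and higher. Mybl2, which encodes B-MYB, averaged 7.99 ± 0.14 in the knockout and 7.59 ± 0.32 in WT (SD, n = 3 each), a difference of 0.40 (SE 0.17). E2f7 and E2f8, the atypical repressor E2Fs, differed by 0.48 (SE 0.20) and 0.40 (SE 0.27). E2f5, a partner of the pocket proteins, had a negative difference of -0.41 (SE 0.12) with separate groups, while E2f2 and Tfdp2 differed by 0.01 and 0.04. The 12 G1 cyclins and kinases had a median of 0.12, with 10 positive, 0 called, 3 separate and higher, and 1 (8.33%) higher at an unadjusted p under 0.05. That gene was Ccnd1, which encodes the cyclin D1 of G1, and it averaged 8.53 ± 0.13 in the knockout and 7.93 ± 0.14 in WT (SD, n = 3 each). Its groups were separate, the difference was 0.60 (SE 0.12), and the adjusted p was 0.206 by limma. Cdk3, Ccne1 and Cdk2 differed by 0.32, 0.22 and 0.21, and Cdk6 and Cdk7 by -0.02 and 0.07.

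Levels of markers of other cell types moved with some arrays. Of 15 erythroid genes 11 had a row, 6 with a positive difference, and their mean log2 level ran between 7.29 and 7.84 over the knockout arrays and between 7.08 and 7.74 over the WT arrays. By this mean WT replicate 2 was the lowest array and knockout replicate 1 the highest. By gene, WT replicate 2 was the lowest array for 6 of the 11, or 54.5%, beside 23.0% of all genes. Tfrc, the transferrin receptor, was highest on that array, at 7.78, 8.01 and 8.14 in the knockout, against 7.90, 8.36 and 8.22 in WT. Car1, carbonic anhydrase 1 of red cell precursors, had the widest range, at 11.34, 8.38 and 8.81 in the knockout, against 9.32, 7.02 and 10.51 in WT. Without Car1, a choice made after seeing the data, the mean of the other 10 ran between 7.18 and 7.49 in the knockout and between 7.09 and 7.47 in WT, with the same lowest and highest arrays. The part of such cells in the G2/M differences was not tested. The 15 B and plasma cell genes all had a negative difference, and their mean level ran between 7.23 and 7.98 in the knockout and between 7.93 and 9.03 in WT. The mean of the 15 genes of neutrophils and their precursors was lowest on WT replicate 2 too. It ran from 8.09 to 8.73 in the knockout and from 7.90 to 9.10 in WT. By gene, WT replicate 2 was the lowest array for 6 of the 15, or 40.0%, beside 23.0% of all genes. This mean joins genes that moved apart, with 6 positive and 9 negative differences, from -2.44 for Ngp to 1.40 for Ms4a3, and 0 called. By limma 5 (33.3%) were higher at an unadjusted p under 0.05, beside 5.03% of all genes, and 4 were lower, beside 3.08%. Groups were separate and higher for 5 (33.3%), beside 7.96% of all genes, and separate and lower for 1, beside 1180 of the 22180 genes. Megakaryocyte genes ran from 7.34 to 7.63 in the knockout and from 7.15 to 7.30 in WT over 8 genes. T and NK cell genes ran from 6.20 to 6.42 in the knockout and from 6.16 to 6.43 in WT over 10 genes. The means of both these lists were lowest on WT replicate 2 as well. So was the mean of all genes, at 6.41, beside 6.44 to 6.46 on the other arrays. Monocyte and macrophage genes ran from 7.57 to 8.10 in the knockout and from 7.70 to 8.04 in WT over 9 genes. The LSK markers themselves, 8 in number, stayed between 9.30 and 9.40 in the knockout and between 9.32 and 9.45 in WT, with WT replicate 2 the highest. The part of these lists was not tested either.

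**Figure D5:**
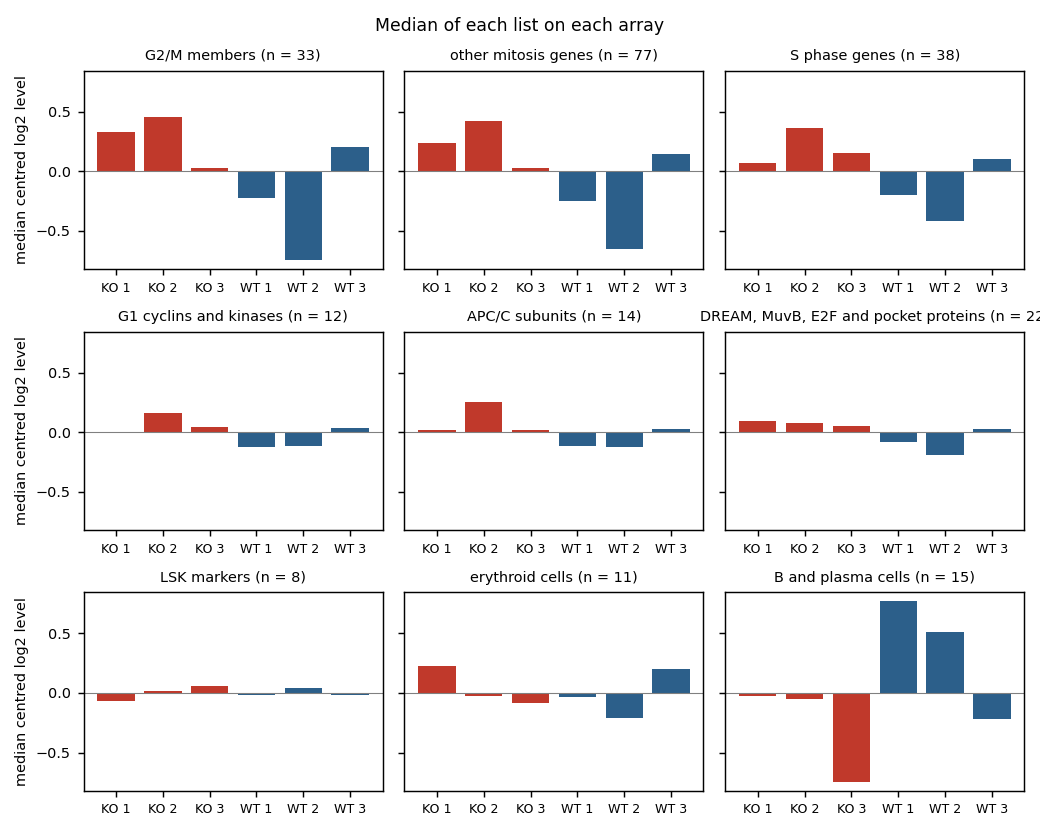
Median over each list of log2 levels centred on each gene's mean, by array (KO is the knockout, red, left; WT blue, right), with the number of genes in each panel title. WT replicate 2 is at -0.74 for the G2/M genes, -0.65 for the other mitosis genes and -0.42 for the S phase genes, and at 0.04 for the LSK markers.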

How the data were processed

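The deposited values of the 6 arrays are log2 probe set summaries made with RMA and the R package oligo, per the submitters' processing notes, which give no versions. Because RMA includes a background correction and a quantile step, differences of dim probe sets are understated and all arrays are made alike in distribution. The build was not given in the sources used here. Of 41345 probe sets, 23521 had 1 symbol in GEO's platform annotation, 1814 several and 16010 none here; only the first were used, and the brightest per gene gave 22180 genes. Entrez identifiers of 23328 were found in RefSeq's GRCm38.p6 gene table, and 0 symbols changed. A probe set cannot separate near-identical copies.

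All genes were fitted with limma 3.58.1 under R 4.3.3 (lmFit and eBayes, group as the only term, no filter on low values), with Benjamini-Hochberg adjustment and a threshold of 0.05. Differences are knockout minus WT. The fit was also run on simulated arrays in which genes varied independently, unlike the genes of this list, and no result here rests on it. P-values set each difference against the spread between arrays within the groups, moderated over all genes, and the number of arrays limits the precision. The members and lists were chosen with earlier results of these data known, so lists are described by counts and medians, beside those of all genes, with no test of a list. By the rule for naming, per-array values are given for 10 set members (Ccnb1 without a row), every member at an unadjusted p under 0.05 and the 3 with the smallest difference, and of each further pathway list the 4 largest and 2 smallest differences are named. Car1, Tfrc and the sort and lineage markers were named after their values were seen. Alternatives were each array left out, array weights, the replicate number as a block, trended and robust eBayes, averaged probe sets per gene, genes above the median level only, centring on those, and a second quantile normalization.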

Additional observations from a re-analysis of the deposited data

How the results depend on the processing

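The median differences of the G2/M, other mitosis and S phase genes stayed positive under all alternatives: between 0.43 (array weights) and 0.54 with all arrays, and between 0.29 and 0.76 with 1 array left out, for the G2/M genes; between 0.30 and 0.70 for the other mitosis genes and between 0.24 and 0.48 for the S phase genes with 1 array left out. Of 429 differences of single members under the alternatives 428 kept their sign. Part of that count was fixed in advance. Trended and robust eBayes, the replicate block, averaged probe sets and the filter on level cannot change a member's difference. Each member has only 1 probe set with 1 symbol. Ube2c lay between -0.024 (without WT replicate 2) and 0.52 with 1 array left out. Called members were 0 in every fit. Members at an unadjusted p under 0.05 by limma, 18 with all arrays, numbered 4 with array weights (4.75% of all genes higher), 10 with the replicate block (4.93%) and between 2 and 31 with 1 array left out. All genes called, 16 at first, numbered 25 with eBayes trend and robust settings, 7 with the replicate block and between 0 and 8 with 1 array left out. The 0 was without knockout replicate 1, where limma had 1001 genes higher at an unadjusted p under 0.05. Centring on the brighter genes moved the median of all genes to -0.04 and that of the G2/M genes to 0.48. Deviations from the group means correlated by 0.29, 0.02 and -0.14 between samples of the same replicate number. Between samples of unlike number the correlations ran from -0.25 to 0.25. The labels name no batch, and these few correlations cannot settle whether samples of the same number shared one. Signal over background is not given by the files, which limits what can be said of dim probe sets.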
